A study of Homo sapiens with 12 samples.

Results

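The 8 genes STC1, STC2, GDF15, FGF21, INHBE, INHBA, ANGPTL4 and ADM2 encode hormones and growth factors that cells secrete when they are stressed, starved or short of oxygen. They were taken by name from the deposited table of 58735 genes, and all 8 were found. The names were chosen by a reading of how geniposide changed transcript levels in these same libraries, so the differences between treated and untreated libraries are given below as a description, with no p-value for the 8 genes. Counts of calls among them stand only beside the share of all genes called. By the labels, RNA sequencing covered 2 human liver tumour lines in 4 groups of 3 libraries. Huh7 was derived from a hepatocellular carcinoma and HepG2 from a hepatoblastoma. The groups were Huh7 with geniposide (Huh7_Ge), Huh7 without it (Huh7_Ctrl), HepG2 with geniposide (hepG2_Ge) and HepG2 without it (hepG2_Ctrl), all labelled 48 h. Geniposide is an iridoid glycoside of gardenia fruit, and the labels give no dose and name no vehicle or genetic change. The title of the study names the oxidase DUOX1 and ferroptosis, an iron-dependent cell death, as the route of the compound in hepatocellular carcinoma. Each group models a tumour line in culture, and the labels do not say whether the 3 libraries of a group came from separate cultures, so p-values measure only the spread between these libraries.

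Several of these hormones are induced by the integrated stress response, in which kinases slow translation and the transcription factor ATF4 is made in its place. STC2, GDF15, FGF21, INHBE and ADM2 are known ATF4-pathway genes, ANGPTL4 is a classical target of the fatty acid sensing PPAR receptors and of hypoxia, and STC1 is induced by hypoxia. Hormones of this kind report the state of a stressed tissue to others: GDF15 acts on the brainstem and lowers food intake, FGF21 from the liver acts on fat and brain, and ANGPTL4 inhibits lipoprotein lipase.

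Between 15056655 and 17211659 fragments per library were assigned to genes. Of 7 hepatocyte markers, 0 reached 1 FPKM (fragments per kilobase of gene, scaled by library size) in a group mean: ALB had 6 fragments over the 12 libraries, TTR 3, AFP 2 and APOB 0. These values go against the hepatocyte character that the names of the lines imply, and the identity of the cells was not tested. The libraries are therefore called Huh7-labelled and HepG2-labelled, and Huh7, HepG2 and line below refer to the labels. Markers of endothelium, leukocytes and adipocytes reached 1 FPKM in 0 of 4, 0 of 4 and 0 of 3 genes, those of cholangiocytes in 3 of 4 and those of fibroblasts in 4 of 5, with COL1A2 at 0. The summed cholangiocyte markers were 2.38 to 3.92 FPKM in Huh7_Ge, 3.42 to 4.27 FPKM in Huh7_Ctrl, 72.4 to 75.9 FPKM in hepG2_Ge and 275 to 288 FPKM in hepG2_Ctrl. The HepG2-labelled sums are nearly all KRT7, which reached 286 FPKM. The highest values of SOX9, KRT19 and EPCAM in any library were 3.74, 1.34 and 0.503 FPKM. The summed fibroblast markers were 4.94 to 7.39, 4.65 to 4.93, 44.5 to 46.6 and 36.5 to 38.1 FPKM in the same order of groups. Their part in the results below was not tested. Huh7_Ge replicate 3 stood apart: 406 of 15518 genes lay at least 1 log2 unit from the mean of the other 2 libraries of its group, against 131 to 173 genes in each of the other 11 libraries. Results are therefore given with and without it. In bulk RNA, fewer cells that make a transcript and less of the transcript per cell cannot be told apart.

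Levels are FPKM per library, and differences are in log2(FPKM + 1) ± SE, geniposide minus untreated, which understates changes of genes near or under 1 FPKM. Of the 8 genes, 6 passed the filter of 1 FPKM in at least 3 of 12 libraries. FGF21 and INHBA did not, and their differences come from the same model without the filter. INHBE passed only through the 3 Huh7_Ge libraries. ANGPTL4 reached 1 FPKM only in HepG2-labelled libraries, and GDF15 only in those and Huh7_Ge replicate 3. ADM2 reached it only in Huh7-labelled libraries and hepG2_Ctrl replicate 2. The plot of levels by library shows each of the 12 values per gene.

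**Figure D1:**
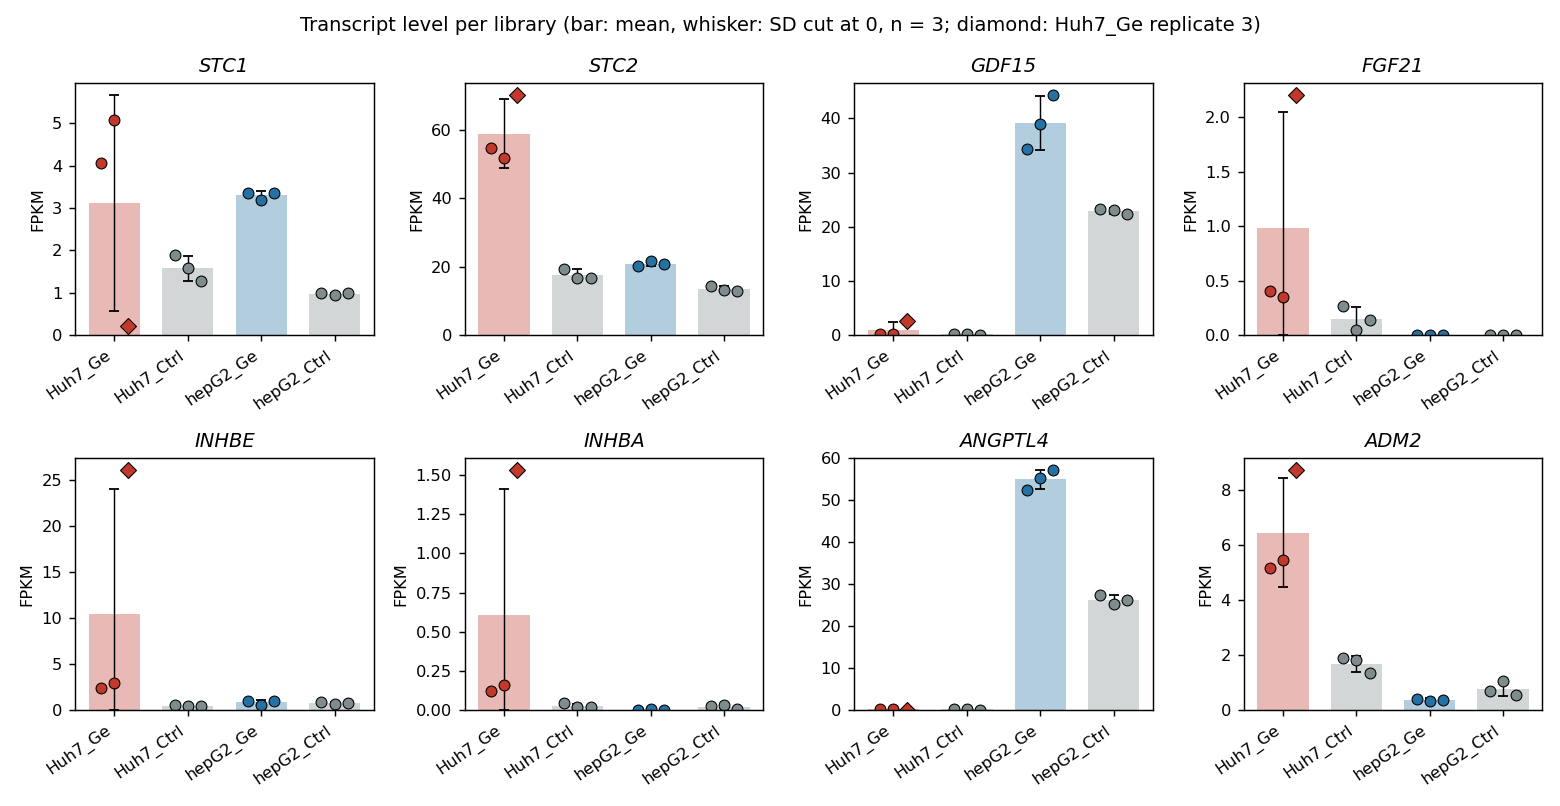
FPKM (y axis, linear from 0) of the 8 hormone genes in the 3 libraries of each group (x axis); bars are means, whiskers SDs, n = 3, cut at 0, and the diamond is Huh7_Ge replicate 3. STC2 and ADM2 are highest in the Huh7_Ge libraries and ANGPTL4 and GDF15 in the hepG2_Ge libraries, while the diamond is far above its group for GDF15, FGF21, INHBE and INHBA and far below it for STC1.

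The stanniocalcins are glycoprotein hormones that inhibit the pappalysin proteases, which release insulin-like growth factors from their binding proteins. STC2 (ENSG00000113739, chr5:173314713-173329503, minus strand, hg38) had 54.7, 51.6 and 70.3 FPKM in Huh7_Ge, against 19.4, 16.8 and 16.7 FPKM in Huh7_Ctrl. In HepG2-labelled libraries it had 20.1, 21.6 and 20.7 FPKM with geniposide, against 14.4, 13.2 and 13.0 FPKM without it. Treated libraries were above all untreated libraries in both lines, and STC2 was the only one of the 8 genes above 10 FPKM in every library. Its means were 58.9 ± 9.98 and 17.6 ± 1.54 FPKM in Huh7_Ge and Huh7_Ctrl, a ratio of 3.34, and 20.8 ± 0.725 and 13.6 ± 0.774 FPKM in hepG2_Ge and hepG2_Ctrl, a ratio of 1.53 (SD, n = 3 each). On the log2 scale the differences were 1.68 ± 0.10 in Huh7-labelled and 0.58 ± 0.10 in HepG2-labelled libraries. Without Huh7_Ge replicate 3 the first was 1.54 ± 0.07, so STC2 depended little on that library. The order of levels was Huh7_Ge, hepG2_Ge, Huh7_Ctrl and hepG2_Ctrl, with no overlap between neighbours, although hepG2_Ge and Huh7_Ctrl lay within a few FPKM of each other.

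STC1 (ENSG00000159167, chr8:23841915-23854807, minus strand) had 4.06, 5.07 and 0.220 FPKM in Huh7_Ge, against 1.88, 1.57 and 1.28 FPKM in Huh7_Ctrl. These values rest on 314, 369 and 17 fragments, against 135, 110 and 88. The first and second treated libraries were above every untreated library and the third was below every one of them. In HepG2-labelled libraries STC1 had 3.36, 3.20 and 3.36 FPKM with geniposide, against 0.988, 0.953 and 0.988 FPKM without it, a ratio of means of 3.39 with groups far apart. In Huh7-labelled libraries the log2 difference was 0.38 ± 0.46 with all libraries and 1.11 ± 0.10 without replicate 3, when the ratio of means was 2.89. The HepG2 difference of 1.12 keeps its size under that choice, but its SE, which pools the spread of all groups, was 0.46 with and 0.09 without replicate 3. With replicate 3, the lowest of the 12 libraries, Huh7_Ge spanned the values of every other group. Without it the order was Huh7_Ge, hepG2_Ge, Huh7_Ctrl and hepG2_Ctrl, with no overlap between neighbours.

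ADM2 encodes adrenomedullin-2, also called intermedin, a peptide of the calcitonin family that widens blood vessels. ADM2 (ENSG00000128165, chr22:50481556-50486440, plus strand) had 5.14, 5.46 and 8.73 FPKM in Huh7_Ge, against 1.89, 1.81 and 1.34 FPKM in Huh7_Ctrl. In HepG2-labelled libraries it had 0.416, 0.314 and 0.373 FPKM with geniposide, against 0.692, 1.05 and 0.536 FPKM without it. The groups did not overlap in either line and lay in opposite directions, a pattern that no other of the 8 genes showed in non-overlapping groups. The means were 6.44 ± 1.99 and 1.68 ± 0.295 FPKM in Huh7_Ge and Huh7_Ctrl, and 0.368 ± 0.0513 and 0.758 ± 0.262 FPKM in hepG2_Ge and hepG2_Ctrl (SD, n = 3 each). The log2 difference was 1.45 ± 0.17 in Huh7-labelled libraries (1.24 ± 0.13 without replicate 3) and −0.35 ± 0.17 in HepG2-labelled libraries (SE 0.11 without it). With 0.1 FPKM added in place of 1 the HepG2 difference was −0.84, since ADM2 lies near or under 1 FPKM there, on 26, 19 and 25 fragments in hepG2_Ge and 44, 68 and 33 in hepG2_Ctrl.

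INHBE and INHBA encode the beta E and beta A subunits that pair into activins, ligands of the TGF-beta family; activin E is made mostly by hepatocytes. INHBE (ENSG00000139269, chr12:57452323-57459280, plus strand) had 2.35, 2.91 and 26.2 FPKM in Huh7_Ge, against 0.574, 0.394 and 0.461 FPKM in Huh7_Ctrl. All treated libraries were above all untreated ones, but replicate 3 was 9.94 times the mean of replicates 1 and 2. In HepG2-labelled libraries INHBE had 0.930, 0.539 and 0.996 FPKM with geniposide, against 0.892, 0.634 and 0.806 FPKM without it, and the groups overlapped. The log2 difference in Huh7-labelled libraries was 2.26 ± 0.61 with replicate 3 and 1.30 ± 0.13 without it, with ratios of means of 22.0 and 5.52. In HepG2-labelled libraries it was 0.03 ± 0.61, with a 95% interval of −1.31 to 1.37, and without replicate 3 of −0.23 to 0.29. Huh7_Ge was the highest group, and hepG2_Ge overlapped both hepG2_Ctrl and Huh7_Ctrl.

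INHBA (ENSG00000122641, chr7:41667168-41705834, minus strand) was at or under 0.158 FPKM outside 1 library. It had 0.123, 0.158 and 1.54 FPKM in Huh7_Ge, on 19, 23 and 237 fragments, against 0.0417, 0.0215 and 0.0218 FPKM in Huh7_Ctrl, on 6, 3 and 3 fragments. All treated Huh7-labelled libraries were above the untreated ones, and replicate 3 was 10.9 times the mean of the other treated libraries. HepG2-labelled libraries held 0, 1 and 0 INHBA fragments with geniposide, against 3, 4 and 1 without it, where 3 fragments are worth 0.0231 to 0.0255 FPKM. No ratio is given there, because both group means, 0.00283 and 0.0215 FPKM, are under that floor. The log2 difference in Huh7-labelled libraries was 0.53 ± 0.25, and 0.15 ± 0.02 without replicate 3.

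GDF15 and FGF21 are the endocrine hormones of the set. GDF15 was far higher in HepG2-labelled libraries, while FGF21 was low or at 0 in both lines. GDF15 (ENSG00000130513, chr19:18374731-18389176, plus strand) had 34.4, 38.9 and 44.4 FPKM in hepG2_Ge, against 23.3, 23.2 and 22.3 FPKM in hepG2_Ctrl. The groups did not overlap, with means of 39.2 ± 5.00 and 22.9 ± 0.561 FPKM (SD, n = 3 each) and a ratio of 1.71. The log2 difference was 0.74, with an SE of 0.34 in the fit of 12 libraries and 0.09 without Huh7_Ge replicate 3. In Huh7-labelled libraries GDF15 had 0.205, 0.191 and 2.60 FPKM in Huh7_Ge, on 8, 7 and 101 fragments, against 0.138, 0.256 and 0.0289 FPKM in Huh7_Ctrl, on 5, 9 and 1 fragments. Replicate 3 alone was above the untreated range, at 13.1 times the mean of replicates 1 and 2, and without it the log2 difference was 0.08 ± 0.10, against 0.60 ± 0.34 with it.

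FGF21 (ENSG00000105550, chr19:48755559-48758333, plus strand) had 0.408, 0.347 and 2.21 FPKM in Huh7_Ge, on 10, 8 and 54 fragments, against 0.263, 0.0452 and 0.138 FPKM in Huh7_Ctrl, on 6, 1 and 3 fragments. The treated libraries were above the untreated ones, replicate 3 at 5.85 times the mean of the other treated libraries. The log2 difference was 0.67 ± 0.27, and 0.27 ± 0.07 without replicate 3. All 6 HepG2-labelled libraries had 0 FGF21 fragments, which allows up to 0.146 to 0.161 FPKM, the worth of 3 fragments, and covers counting error only.

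ANGPTL4 encodes angiopoietin-like 4, the lipoprotein lipase inhibitor. ANGPTL4 (ENSG00000167772, chr19:8363289-8374373, plus strand) had 52.3, 55.1 and 57.0 FPKM in hepG2_Ge, against 27.4, 25.2 and 26.1 FPKM in hepG2_Ctrl. The groups were far apart, with means of 54.8 ± 2.35 and 26.2 ± 1.11 FPKM (SD, n = 3 each), a ratio of 2.09 and a log2 difference of 1.03 ± 0.06, and ANGPTL4 was the most abundant of the 8 transcripts in HepG2-labelled libraries. In Huh7-labelled libraries it had 0.151, 0.184 and 0.108 FPKM with geniposide, on 7, 8 and 5 fragments, against 0.233, 0.239 and 0.0973 FPKM without it, on 10, 10 and 4 fragments. These groups overlapped near the worth of a few fragments, and a difference between them was not detectable at this depth. ANGPTL4 shares 1 exonic base with the antisense gene RAB11B-AS1, at 1.26 to 1.96 FPKM in the group means, and the library protocol does not mark strand.

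**Figure D2:**
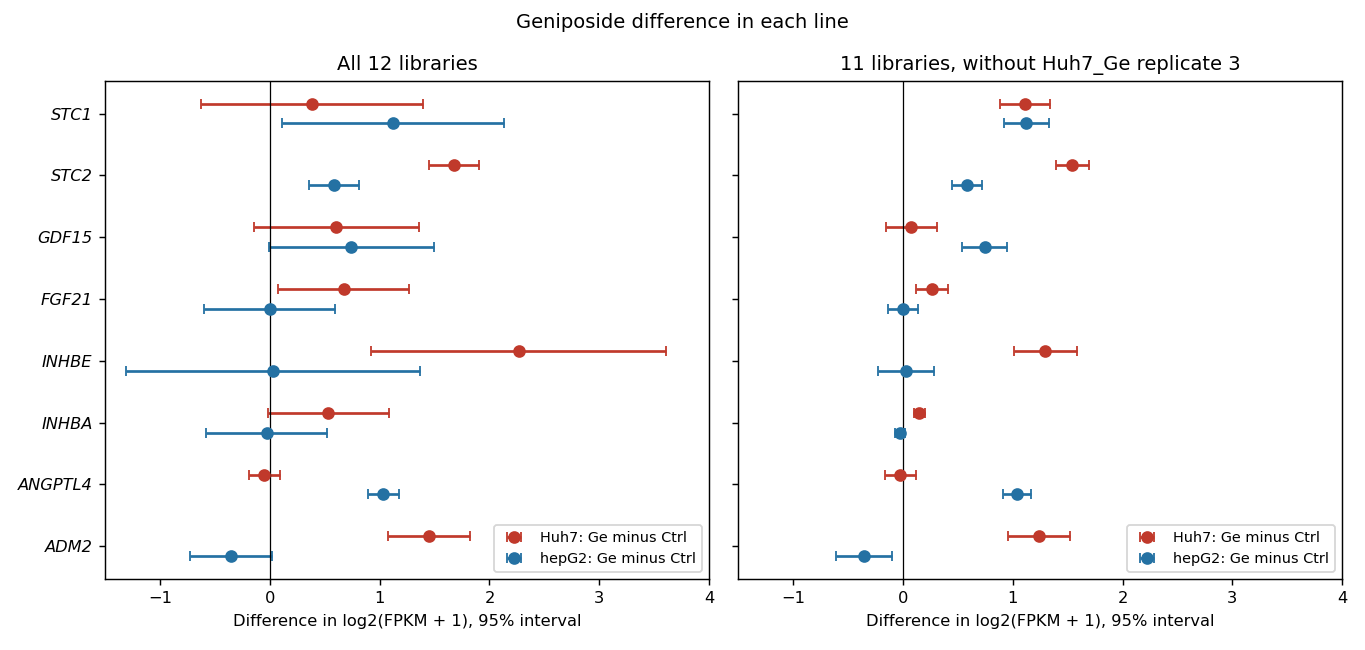
Difference in log2(FPKM + 1), geniposide minus untreated (x axis), for each hormone gene (y axis) in Huh7-labelled (red, upper point) and HepG2-labelled (blue, lower point) libraries, with 95% intervals, from the fit of 12 libraries (left) and of 11 libraries (right). STC2 and ADM2 lie farther to the right in Huh7-labelled libraries and ANGPTL4 in HepG2-labelled libraries in both panels, and the STC1 points of the lines come together at 1.11 and 1.12 without Huh7_Ge replicate 3.

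Counted over the fit across all genes, at an adjusted p under 0.05, 3 of the 6 genes past the filter were called in Huh7-labelled libraries (ADM2, INHBE and STC2), all higher with geniposide, where 16.4% of all genes were called higher and 18.1% lower. In HepG2-labelled libraries 2 were called, ANGPTL4 and STC2, both higher, where 21% of all genes were called higher and 21.5% lower. Because the genes were picked with these differences in view, nothing is read from these counts. INHBE was no longer called with each line fitted alone or with limma-voom on the recovered fragments. Without Huh7_Ge replicate 3, STC1 joined the called genes in Huh7-labelled libraries, making 4 (22.6% of all genes higher, 23.5% lower). In HepG2-labelled libraries, STC1 and GDF15 then joined as higher and ADM2 as lower, making 4 higher and 1 lower (26.5% and 27.3% of all genes). No HepG2-labelled value changes with that choice, and only the spread pooled over the groups does.

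The geniposide difference itself was set between the lines, as that in Huh7-labelled minus that in HepG2-labelled libraries. It was 1.09 ± 0.15 for STC2 and 1.80 ± 0.24 for ADM2, larger in Huh7-labelled libraries, and −1.08 ± 0.09 for ANGPTL4. Without Huh7_Ge replicate 3 these were 0.96 ± 0.09, 1.59 ± 0.17 and −1.06 ± 0.09. The ANGPTL4 value mostly restates its HepG2 difference, because its Huh7 levels are far under the added 1 FPKM. With voom on the recovered fragments it was −1.28 ± 0.45 and no longer called. For INHBE it was 2.24 ± 0.86, and 1.27 ± 0.17 without that library. For GDF15 no direction can be given: it was −0.14 ± 0.48 with all libraries, −0.67 ± 0.14 without replicate 3 and 1.32 with voom on the recovered fragments, since the Huh7 levels lie far under the 1 FPKM that is added. Of the 6 genes past the filter 2 were called positive and 1 negative, where 13.7% of all genes were called positive and 14.1% negative. Without that library 3 and 2 were called, beside 20.2% and 19.6% of all genes. These calls rest on the differences that chose the genes, and nothing is read from them. STC1 then differed by −0.01 ± 0.14 between the lines, with a 95% interval of −0.32 to 0.29. For ADM2 the sign of the geniposide difference was opposite in the lines, for STC2 it was the same, and for ANGPTL4 the Huh7 values were too low to set a direction.

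Huh7_Ge replicate 3 split the hormones. Relative to the mean of replicates 1 and 2 it held 13.1 times as much GDF15, 10.9 times INHBA, 9.94 times INHBE, 5.85 times FGF21, 1.65 times ADM2 and 1.32 times STC2, but 0.0483 times STC1. ANGPTL4, at 0.647 times, rested on 5 fragments. Across all genes in the fit, 1.03% lay at least 1 log2 unit above that mean and 1.59% at least 1 below it. Listed targets of hypoxia were lowest of the 3 treated libraries in replicate 3 for 6 of 8 genes and highest for 1, with a median of −0.96 log2 units from the mean of the others, against −0.02 over all genes. Those of ATF4 were highest in replicate 3 for 8 of 10 genes and lowest for 2, with a median of 0.56. The part of either in the hormone levels of that library was not tested.

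**Figure D3:**
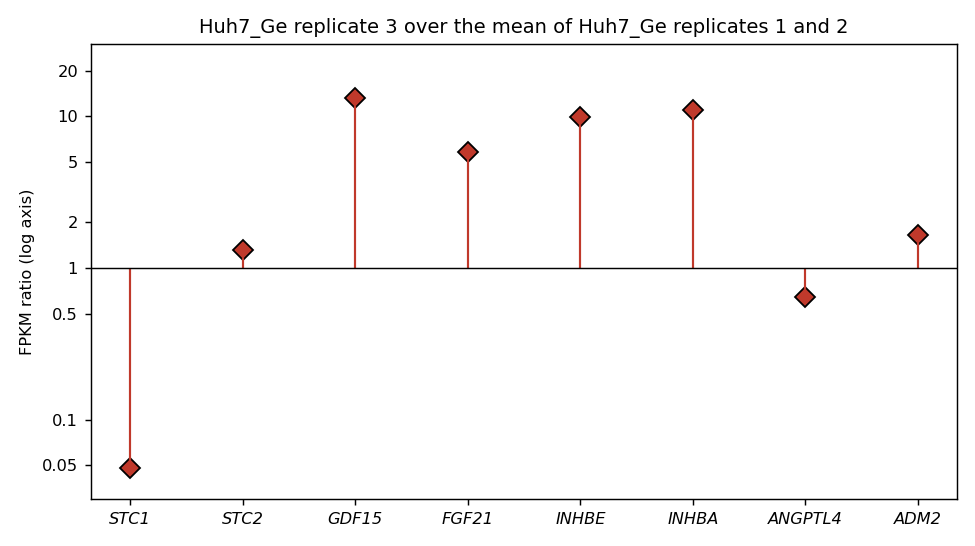
FPKM in Huh7_Ge replicate 3 divided by the mean of Huh7_Ge replicates 1 and 2 (y axis, log scale) for each hormone gene (x axis), with a line at 1. GDF15, INHBA, INHBE and FGF21 lie at 5.85 or more, STC1 at 0.0483, and the other 3 between 0.647 and 1.65.

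The untreated lines differed in their hormone transcripts before any treatment. This comparison of Huh7_Ctrl with hepG2_Ctrl shares its libraries with the comparisons above. ANGPTL4 and GDF15 were lower in Huh7_Ctrl than in hepG2_Ctrl, by −4.52 ± 0.06 and −4.39 ± 0.34, from means of 0.190 against 26.2 FPKM and of 0.141 against 22.9 FPKM. ADM2 was higher in Huh7_Ctrl, at 1.68 against 0.758 FPKM, by 0.61 ± 0.17. No p-value is given for ANGPTL4, GDF15 and ADM2, which passed the filter mainly through the line where they are high. STC2 was higher in Huh7_Ctrl, at 17.6 against 13.6 FPKM, by 0.35 ± 0.10 (adjusted p = 0.0101). Called were 2 genes higher and 2 lower of the 6 in the fit, where 35.8% of all genes were called higher and 36.1% lower, so the share of hormones called was close to that of all genes. STC1, at 1.58 against 0.976 FPKM, differed by 0.38 ± 0.46 (adjusted p = 0.477), but without Huh7_Ge replicate 3, which enters only through the pooled spread, its adjusted p was 0.00338, with 39% of all genes called higher and 39% lower. INHBE, at 0.476 against 0.777 FPKM, differed by −0.27 ± 0.61 (adjusted p = 0.708). The scaling matters for this comparison: rescaling each library to TPM, so that all libraries have the same sum, moved the median difference of all genes to 0.27 from 0.01, and the calls of the 6 genes kept their direction.

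The 300 bases around the RefSeq start of 4 of the genes are shown because STC2, ADM2 and FGF21 are known genes of the ATF4 pathway and ANGPTL4 is a known target of hypoxia, the programmes described next. They hold 250 bases before the start and 50 from it on, read along the gene, taken from a table of promoters made from RefSeq's GRCh38.p14 annotation, in which 6 of the 8 genes were matched. STC2 is chr5:173328365-173328664 on the minus strand, ADM2 is chr22:50481293-50481592, FGF21 is chr19:48755274-48755573 and ANGPTL4 is chr19:8363905-8364204, all on the plus strand. These starts are not the 5′ ends of the genes as the deposited table gives them. Capitals mark matches to the motifs that were searched.
STC2: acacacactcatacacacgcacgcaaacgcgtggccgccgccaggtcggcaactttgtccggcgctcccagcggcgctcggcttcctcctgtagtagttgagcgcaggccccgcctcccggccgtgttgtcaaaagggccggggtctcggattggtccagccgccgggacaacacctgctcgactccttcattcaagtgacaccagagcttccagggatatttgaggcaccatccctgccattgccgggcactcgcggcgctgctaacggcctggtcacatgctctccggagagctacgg
ADM2: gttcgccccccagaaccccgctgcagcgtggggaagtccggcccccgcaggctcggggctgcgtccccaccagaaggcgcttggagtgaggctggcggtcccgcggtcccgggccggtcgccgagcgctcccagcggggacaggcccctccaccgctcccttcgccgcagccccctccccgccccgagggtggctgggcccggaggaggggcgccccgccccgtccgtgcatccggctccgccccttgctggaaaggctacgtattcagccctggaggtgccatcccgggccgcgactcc
FGF21: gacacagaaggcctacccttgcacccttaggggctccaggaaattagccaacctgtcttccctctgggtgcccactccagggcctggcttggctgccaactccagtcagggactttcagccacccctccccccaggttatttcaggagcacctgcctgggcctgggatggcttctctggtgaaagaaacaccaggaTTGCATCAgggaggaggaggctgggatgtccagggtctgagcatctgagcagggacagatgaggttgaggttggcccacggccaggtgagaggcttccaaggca
ANGPTL4: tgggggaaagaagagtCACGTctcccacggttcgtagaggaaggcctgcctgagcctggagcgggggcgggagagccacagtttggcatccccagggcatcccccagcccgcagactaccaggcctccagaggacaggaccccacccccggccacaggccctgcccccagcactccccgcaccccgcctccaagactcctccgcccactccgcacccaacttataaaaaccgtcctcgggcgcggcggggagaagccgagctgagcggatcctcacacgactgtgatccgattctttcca
Motifs were searched on both strands in the 6 promoters. TGATGNAA, the core of the composite element that ATF4 and C/EBP proteins bind, matched in FGF21 on the minus strand, 54 to 47 bases before the start, and 3.62% of 35116 RefSeq promoters of the same length hold it. ACGTG, a form of the core of the hypoxia response element, matched in ANGPTL4 on the minus strand, 234 to 230 bases before the start, and in 21.4% of promoters. The form GCGTG was not searched, and its share over all promoters is not known. Its letters can be read in the printed sequence of ADM2, and in that of STC2 on both strands. A promoter without ACGTG may therefore still hold the core. The cyclic AMP response element TGACGTCA, in 1.85% of promoters, matched in none of the 6. STC2, ADM2, GDF15 and INHBA matched none of the motifs that were searched, which says only that those letters are not in this window.

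Receptors of these hormones were partly present in the lines. Of 17 listed receptors and co-receptors 12 were in the fit, and 3 rose and 0 fell in Huh7-labelled libraries (median 0.03, and 5 rises without Huh7_Ge replicate 3). With all libraries that is 25% of them, against 34.5% of all genes called in either direction and a median of 0 over all genes. Without replicate 3 it is 41.7%, against 46.1% of all genes. In HepG2-labelled libraries 4 rose and 3 fell (median −0.01), 58.3% of them, against 42.5% of all genes. Without Huh7_Ge replicate 3 these HepG2 counts were the same, against 53.8% of all genes. For the activins, the type I receptor ACVR1B rose in both lines, with 13.8 ± 1.57 and 9.93 ± 0.198 FPKM in Huh7_Ge and Huh7_Ctrl (adjusted p = 0.00229) and 7.85 ± 0.605 and 6.21 ± 0.432 FPKM in hepG2_Ge and hepG2_Ctrl (adjusted p = 0.0141). Among the listed FGF receptors, FGFR4 rose in Huh7-labelled libraries, with 20.4 ± 2.95 and 15.8 ± 0.954 FPKM in Huh7_Ge and Huh7_Ctrl (adjusted p = 0.0193). It fell in HepG2-labelled libraries, with 3.90 ± 0.242 and 9.46 ± 0.815 FPKM (adjusted p = 1.15e-05). FGFR1 had 9.32 and 9.08 FPKM in Huh7_Ge and Huh7_Ctrl (adjusted p = 0.727). In hepG2_Ge and hepG2_Ctrl it had 2.99 and 3.53 FPKM (adjusted p = 0.02965). Through which receptor FGF21 would act in these cells was not tested. Some receptors were nearly absent and were picked out after their values were seen. KLB, the co-receptor that FGF21 needs, was at or under 0.0681 FPKM in every group mean, and GFRAL, the brainstem receptor of GDF15, was listed at 0. For ADM2, the receptor CALCRL was at or under 0.164 FPKM in every group mean, whereas its partners RAMP1 and RAMP2 stood at 9.66 and 5.39 FPKM in Huh7_Ge and 9.22 and 7.11 FPKM in Huh7_Ctrl, and at or under 0.0967 FPKM in HepG2-labelled groups.

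The next list holds proteins on which the hormones act, their relatives, antagonists and processing enzymes. Of these 28 genes 18 were in the fit. In Huh7-labelled libraries 4 rose and 1 fell (median 0.01), 27.8% against 34.5% of all genes. In HepG2-labelled libraries 6 rose and 6 fell (median 0.03), 66.7% against 42.5% of all genes. Without Huh7_Ge replicate 3 the counts in both lines were the same, against 46.1% of all genes in Huh7-labelled and 53.8% in HepG2-labelled libraries. PAPPA, the protease that stanniocalcins inhibit, was at 1.68 ± 0.269 and 3.05 ± 0.405 FPKM in hepG2_Ge and hepG2_Ctrl (adjusted p = 0.000724), and its substrate IGFBP4 at 39.7 ± 0.809 and 27.9 ± 1.86 FPKM (adjusted p = 0.000456). Beside the higher ANGPTL4, its target LPL fell to 4.95 ± 0.179 FPKM in hepG2_Ge, against 8.22 ± 0.0853 FPKM in hepG2_Ctrl (adjusted p = 0.000304). The follistatin relative FSTL3, which binds activins, rose in Huh7-labelled libraries, to 9.59 ± 2.93 FPKM against 6.01 ± 0.332 FPKM (adjusted p = 0.0108). Huh7_Ge replicate 3 had 13.0 FPKM, and without it the Huh7_Ge mean was 7.91 FPKM (adjusted p = 0.000222). In HepG2-labelled libraries FSTL3 fell, to 151 ± 3.31 FPKM in hepG2_Ge against 299.9 ± 9.89 FPKM in hepG2_Ctrl (adjusted p = 0.000269). The inhibin alpha subunit INHA, which pairs with activin subunits to make inhibins, rose in both lines, with 0.920 and 0.383 FPKM in Huh7_Ge and Huh7_Ctrl (adjusted p = 0.003) and 7.31 and 3.98 FPKM in hepG2_Ge and hepG2_Ctrl (adjusted p = 0.000115).

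Known regulators of the 8 genes were counted in the same way. All 28 listed regulators were in the fit, and 10 rose and 7 fell in Huh7-labelled libraries (median 0.14), 60.7% against 34.5% of all genes. Without Huh7_Ge replicate 3, 12 rose and 11 fell, 82.1% against 46.1%. In HepG2-labelled libraries 6 rose and 3 fell (median 0.10), 32.1% against 42.5% of all genes. Without that Huh7-labelled library, whose spread the fit pools, 13 rose and 8 fell, 75% against 53.8%. The HepG2 share was thus below that of all genes with the library and above it without. DDIT3, a stress-induced factor of the C/EBP family, rose in both, with 20.1 ± 1.69 and 3.41 ± 0.371 FPKM in Huh7_Ge and Huh7_Ctrl (adjusted p = 1.01e-06) and 7.57 ± 0.652 and 3.84 ± 0.660 FPKM in hepG2_Ge and hepG2_Ctrl (adjusted p = 0.000141). CEBPG, a partner of ATF4, had 52.2 ± 7.55 and 20.2 ± 1.16 FPKM in Huh7_Ge and Huh7_Ctrl (adjusted p = 5.85e-06), against 6.59 and 6.84 FPKM in hepG2_Ge and hepG2_Ctrl (adjusted p = 0.727). EGR1, an immediate early factor, had 6.12 ± 0.657 and 1.64 ± 0.148 FPKM in hepG2_Ge and hepG2_Ctrl (adjusted p = 1.22e-06), and 1.07 and 0.905 FPKM in Huh7_Ge and Huh7_Ctrl (adjusted p = 0.352).

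The lists of ATF4-pathway genes and hypoxia targets do not include the 8 hormones. All 10 ATF4 markers rose in Huh7-labelled libraries, with a median log2 difference of 1.68 against 0 over all genes, of which 16.4% rose, and 10 of 10 also rose without replicate 3 (median 1.34). In HepG2-labelled libraries 1 rose and 2 fell, with a median of −0.41, 30% against 42.5% of all genes. Without Huh7_Ge replicate 3, 2 rose and 5 fell there, 70% against 53.8%. The list was known from earlier results of these libraries, so its direction is not independent evidence. CHAC1, which degrades glutathione, had 49.0 ± 27.9 and 4.56 ± 1.98 FPKM in Huh7_Ge and Huh7_Ctrl (adjusted p = 7.83e-05), and PSAT1, of serine synthesis, fell to 27.6 ± 2.55 FPKM in hepG2_Ge against 76.0 ± 2.35 FPKM in hepG2_Ctrl (adjusted p = 5.02e-05). STC2, ADM2 and INHBE differed in Huh7-labelled libraries with these genes, and of the 3 only STC2 was higher without overlap in HepG2-labelled libraries. GDF15, also named above as an ATF4-pathway gene, did not follow the list. Its Huh7-labelled groups overlapped, and it was higher without overlap in HepG2-labelled libraries (39.2 against 22.9 FPKM). FGF21 was higher without overlap in Huh7-labelled libraries, on few fragments, and at 0 in HepG2-labelled libraries.

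Of 8 hypoxia targets 6 rose and 0 fell in HepG2-labelled libraries, with a median of 1.16, where 21% of all genes rose, and 8 rose without Huh7_Ge replicate 3, where 26.5% of all genes did. In Huh7-labelled libraries 2 rose and 0 fell with all libraries, where 16.4% of all genes rose, and 7 rose without replicate 3, where 22.6% did and the list median was 0.64. CA9, a carbonic anhydrase that marks hypoxic tumours, had 461 ± 22.9 and 106 ± 8.14 FPKM in hepG2_Ge and hepG2_Ctrl (adjusted p = 1.67e-08) and was at or under 0.0121 FPKM in both Huh7-labelled group means. BNIP3, a mitophagy receptor, had 137 ± 3.81 and 49.9 ± 1.25 FPKM in hepG2_Ge and hepG2_Ctrl (adjusted p = 0.011). In Huh7-labelled libraries it had 19.8 ± 11.5 and 13.6 ± 0.247 FPKM with and without geniposide (adjusted p = 0.608), with replicate 3 at 6.57 FPKM and the mean of replicates 1 and 2 at 26.4 FPKM (adjusted p = 7.81e-07 without it). STC1 was likewise low in replicate 3 and high in replicates 1 and 2, and ADM, the relative of ADM2, had 3.11 FPKM in replicate 3 and a mean of 7.22 FPKM in the others, so ADM and ADM2 lay on opposite sides in that library.

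**Figure D4:**
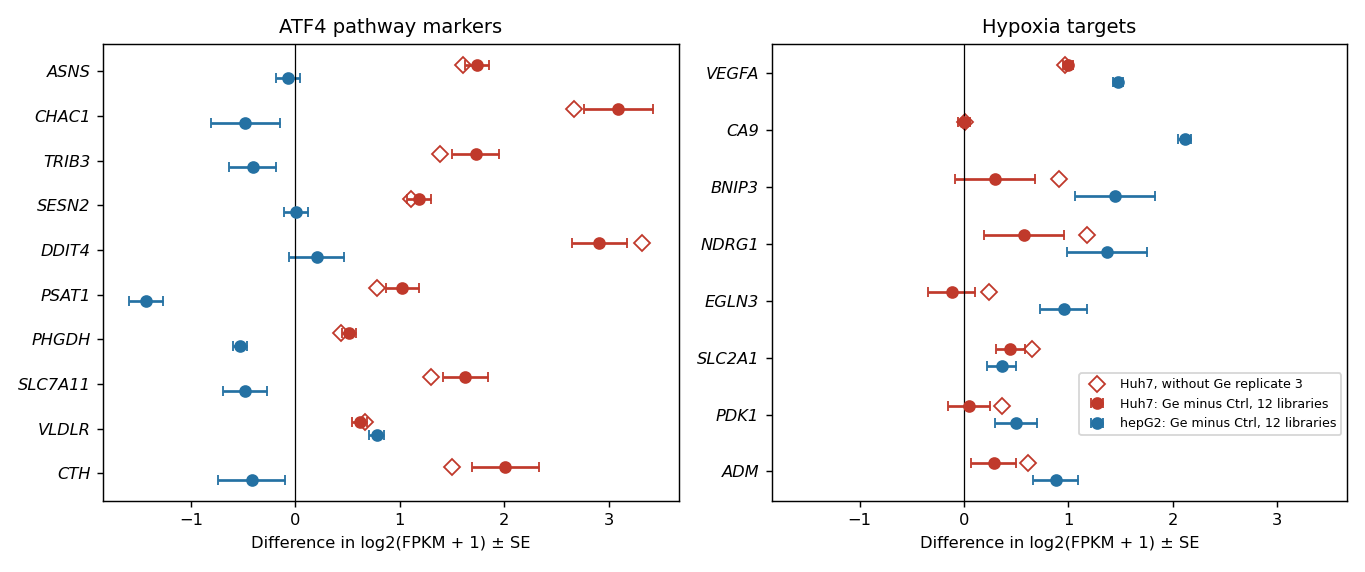
Difference in log2(FPKM + 1) ± SE, geniposide minus untreated (x axis), of 10 ATF4-pathway markers (left) and 8 hypoxia targets (right), named on the y axes, in Huh7-labelled (red, upper point) and HepG2-labelled (blue, lower point) libraries; open diamonds are the Huh7 difference without Huh7_Ge replicate 3. All 10 ATF4 markers lie right of 0 in Huh7-labelled libraries, and the hypoxia targets other than VEGFA and CA9 move to the right in them when replicate 3 is left out.

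Across libraries the hormones fell into separate patterns, described here by Pearson's r of log2(FPKM + 1) over 12 libraries that share lines and treatments. GDF15 and ANGPTL4 had r = 0.98, both high in the HepG2-labelled libraries. FGF21, INHBE and INHBA had r = 0.95 to 0.97 with each other, set by Huh7_Ge replicate 3, and 0.67 to 0.88 over the 11 libraries without it. STC1 and STC2 had r = 0.22 over 12 libraries and 0.86 over 11. Among 12150 protein-coding genes in the fit, the closest to ADM2 was CHAC1 (r = 0.99 over 12 libraries) and, over 11 libraries, XBP1 (r = 0.99), a transcription factor of the unfolded protein response. The closest to STC2 was ZNF250 over 12 and over 11 libraries (r = 0.99 and 0.99). ANGPTL4 was closest to MUC1 and DCN (r = 0.9997 each over 12 libraries), GDF15 to WBP2 (r = 0.998), INHBE to SMDT1 (r = 0.98) and STC1 to IFT140 (r = 0.94). Over 11 libraries the closest were ECHDC3 to GDF15, WDR31 to INHBE and CDT1 to STC1, so for these 3 hormones 1 library decided the first place.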

How the data were processed

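The table holds FPKM for 58735 genes in 12 columns, computed by the authors and deposited as such, and every column was matched to a sample by name. Per the labels' protocols, poly(A) RNA was made into cDNA libraries by a method that does not mark strand. The tools CASAVA and fastp and the build hg38 are those of the submitters' processing notes. Versions, the aligner and the counter are not given in the sources used. FPKM times gene length gave whole fragments for 100% of values within 0.05 fragments. A floor is the worth of 3 fragments and covers counting error only.

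Differences of log2(FPKM + 1) were fitted in R 4.3.3 by limma 3.58.1 to 4 group means over 12 libraries, with a variance trend. Tests were two-sided, with Benjamini-Hochberg adjustment over 15518 genes that had 1 FPKM in at least 3 libraries. Adjusted p-values in the text come from this limma fit, and a gene is called at an adjusted p under 0.05. The fitting script was tested on simulated data. Libraries of a group differed by more than counting error in every pair (chi-square over degrees of freedom at least 2.15). Each comparison was repeated with other pseudocounts, filters, scalings, samples and models. Positions and lengths are those of the deposited table and match GENCODE 29 for the 8 hormone genes.

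The members and lists were chosen with earlier results of these data known. All 8 hormones are described. From each list up to 6 genes past the threshold in either line may be named, by smallest adjusted p, and any receptor or direct partner of a hormone at 1 FPKM or more in a group mean. The genes most like a hormone are those with the highest Pearson r. Some genes that this rule takes are not reported here.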

Additional observations from a re-analysis of the deposited data

Results flagged for a closer look

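For 3 of the hormones the geniposide difference itself differed between the lines in the fit across all genes, as that in Huh7-labelled minus that in HepG2-labelled libraries on the log2(FPKM + 1) scale. It was 1.09 for STC2, which was higher with geniposide in both lines, 1.80 for ADM2, which was higher in treated Huh7-labelled and lower in treated HepG2-labelled libraries, and −1.08 for ANGPTL4, which was higher in treated HepG2-labelled libraries and near the limit of detection in Huh7-labelled libraries. The genes were picked with these differences known, so the values are a description.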

How the results depend on the processing

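The counts of calls moved most with Huh7_Ge replicate 3 and with fitting each line alone. Members called in HepG2-labelled libraries numbered 2 with all libraries in a single fit, but 5 (4 higher, 1 lower) without that library and 5 with each line fitted alone. Members called for the difference between the lines numbered 3, and 5 without that library. Listed receptors, partners and regulators called in Huh7-labelled libraries numbered 25, and 14 with each line fitted alone, while those in HepG2-labelled libraries numbered 28, and 41 with each line alone. The share of all genes called moved as well. Without Huh7_Ge replicate 3 it went from 34.5% to 46.1% in Huh7-labelled and from 42.5% to 53.8% in HepG2-labelled libraries. For the other alternatives that share is not given here, so nothing about the lists is read from these counts or the ranges below. The cause of these changes was not tested. Leaving out 1 library at a time gave 3 to 4 members in Huh7-labelled and 2 to 5 in HepG2-labelled libraries, 3 to 5 for the difference between lines and 4 to 5 for the untreated lines. Listed genes called ranged over 19 to 33 in Huh7-labelled and 20 to 40 in HepG2-labelled libraries. Same-numbered libraries did not deviate together, and the main fit does not pair them. The labels do not say whether they were handled together, and a lack of shared deviation cannot show it. With the replicate number as a block (replicate block), 3 members were called in Huh7-labelled and 2 in HepG2-labelled libraries, as without it, and 23 and 29 listed genes. The INHBE difference in Huh7-labelled libraries lost its call with each line alone (2.26) and with voom on recovered fragments (3.64), and the ANGPTL4 difference between lines with voom (−1.28). Of the values of single members under the alternatives, 588 kept direction and side of the threshold, 23 passed it anew, 3 no longer passed it and 9 turned round, none of them past the threshold in either form. The STC1 difference in Huh7-labelled libraries (0.38) ranged from −0.047 to 1.11 with 1 library left out, the lowest without Huh7_Ge replicate 2, and the INHBE difference in HepG2-labelled libraries (0.03) from −0.042 to 0.15. The GDF15 difference between lines (−0.14) was 0.72 with 0.1 FPKM added, 0.34 with TPM scaling, 1.32 with voom, and −0.67 to 0.13 with 1 library left out, positive without Huh7_Ge replicate 1 or 2. Depth limits GDF15, FGF21, INHBA and ANGPTL4 in Huh7-labelled libraries.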

Other observations

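In the fit of 12 libraries, other secreted factors were called about as often as genes at large. Of 46 listed hormones, growth factors and cytokines outside the 8, 27 were in the fit, with 5 rises and 3 falls in Huh7-labelled and 7 rises and 5 falls in HepG2-labelled libraries (medians 0.03 and 0.08). These are 29.6% and 44.4% of the list, against 34.5% and 42.5% of all genes. Without Huh7_Ge replicate 3 there were 8 rises and 3 falls, and 10 rises and 8 falls. Those are 40.7% against 46.1% of all genes, and 66.7% against 53.8%, so the HepG2-labelled share was then the higher. The angiogenic factor VEGFA, also a hypoxia target, rose in both lines, with 10.3 ± 0.389 and 4.65 ± 0.191 FPKM in Huh7_Ge and Huh7_Ctrl (adjusted p = 1.01e-06) and 88.3 ± 3.12 and 31.2 ± 0.826 FPKM in hepG2_Ge and hepG2_Ctrl (adjusted p = 3.19e-08). BMP2, a bone morphogenetic protein, fell in Huh7-labelled libraries, to 22.9 ± 1.89 FPKM in Huh7_Ge against 36.7 ± 1.82 FPKM in Huh7_Ctrl (adjusted p = 7.42e-05). The vasoconstrictor EDN1 fell in HepG2-labelled libraries, to 4.37 ± 0.359 FPKM in hepG2_Ge against 8.02 ± 0.382 FPKM in hepG2_Ctrl (adjusted p = 1.44e-05).

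Targets of PPAR receptors and of p53, which can induce ANGPTL4 and GDF15, were counted as well. Of 8 PPAR targets 5 were in the fit, with 3 rising and 0 falling in Huh7-labelled libraries and 2 rising and 1 falling in HepG2-labelled libraries (medians 0.26 and −0.02). That is 60% of those 5 in each line, against 34.5% and 42.5% of all genes. Without Huh7_Ge replicate 3 the counts were the same, against 46.1% and 53.8% of all genes. PDK4, which restrains glucose oxidation, had 18.1 ± 0.0685 and 8.19 ± 0.644 FPKM in hepG2_Ge and hepG2_Ctrl (adjusted p = 1.37e-06), while CPT1A, of fatty acid oxidation, had 19.3 ± 0.591 and 27.8 ± 0.330 FPKM (adjusted p = 6.77e-05). Of 8 p53 targets, there were 3 rises and 1 fall in Huh7-labelled and 2 rises and 0 falls in HepG2-labelled libraries (medians −0.13 and 0.03). These are 50% and 25% of the list, against 34.5% and 42.5% of all genes. Without Huh7_Ge replicate 3 there were 3 rises and 3 falls, and 3 rises and 2 falls, 75% and 62.5% against 46.1% and 53.8%. BBC3, a pro-apoptotic BCL2 relative, rose in both, with 10.1 ± 2.21 and 4.33 ± 0.965 FPKM in Huh7_Ge and Huh7_Ctrl (adjusted p = 0.000561) and 8.89 ± 0.592 and 3.95 ± 0.529 FPKM in hepG2_Ge and hepG2_Ctrl (adjusted p = 0.000475).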
